A study of Mus musculus with 6 samples.

Results

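The 6 actin genes (Acta1, Actc1, Acta2, Actg2, Actb and Actg1), 3 genes of smooth muscle actin-binding and motor proteins (Tagln, Cnn1 and Myl9) and the transcription factor gene Srf were followed in C2C12, an established line of mouse myoblasts whose cells fuse to myotubes once serum is lowered. They are 10 of the 24421 gene symbols in the count table and were taken by symbol. The cells had received a lentivirus with a short hairpin RNA against Gaa (shGAA, n = 3 libraries) or one of scrambled sequence (shScrambled, n = 3 libraries). Both groups were grown in 10% fetal bovine serum, selected with puromycin and differentiated in 2% horse serum with 4.5 g/l glucose, and all 6 titles carry the word Fed, which the labels leave unexplained. Neither the number of hairpins nor the origin of the 3 libraries in a group (separate infections, cultures or repeats) is stated, so p-values reflect the spread among these libraries alone, and that spread may be technical.

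Actin forms the thin filament of the sarcomere and the microfilaments of the cytoskeleton. Acta1 (skeletal) and Actc1 (cardiac, also made by embryonic and newly formed skeletal muscle) are the striated isoforms, Acta2 (vascular) and Actg2 (enteric) the smooth muscle isoforms, and Actb and Actg1 the cytoplasmic isoforms of all cells. Cultured myoblasts are known to make Acta2 beside the cytoplasmic actins and to switch to striated actins when they differentiate. Serum response factor (SRF), the product of Srf, binds a short A/T-rich element called the CArG box in the promoters of most of these genes. Its coactivators, the myocardin-related transcription factors (MRTFs), are held inactive by monomeric actin, so that actin assembly feeds back on actin transcription.

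The actin isoforms are close relatives, which bears on how their reads were told apart. The first 60 bases of the coding sequences (GENCODE M21 principal transcripts) are shown so that their likeness can be seen. Capitals mark bases that differ from, or have no partner in, Acta1 after alignment of the whole coding sequences. The rows are printed without alignment gaps, so their columns need not line up. In Actb and Actg1 the capital ATG is the start codon, which the alignment set against later bases of Acta1.
Acta1: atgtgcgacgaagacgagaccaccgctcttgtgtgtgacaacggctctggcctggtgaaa
Actc1: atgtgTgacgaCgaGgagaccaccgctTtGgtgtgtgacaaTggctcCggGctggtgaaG
Acta2: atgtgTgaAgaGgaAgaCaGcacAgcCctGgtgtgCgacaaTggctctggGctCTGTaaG
Actg2: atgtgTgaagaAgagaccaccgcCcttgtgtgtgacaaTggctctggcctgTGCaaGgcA
Actb: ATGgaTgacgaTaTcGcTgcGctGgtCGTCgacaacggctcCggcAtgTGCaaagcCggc
Actg1: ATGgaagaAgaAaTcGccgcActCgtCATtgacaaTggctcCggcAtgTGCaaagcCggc
Over the coding sequence Acta1 matched Actc1 at 86.2% of 1134 aligned bases, Acta2 at 85.4% and Actb at 85.0%, and the closest pair was Actb and Actg1 at 88.7%. Few 50-base stretches were shared between isoforms, at most 2.57% of the stretches of any actin transcript (Actb).

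Other genes, pseudogenes among them, were the larger source of shared sequence for Actb, Actg1 and Tagln. For Actg1, 56.7% of 50-base stretches recurred in transcripts of other genes, with 51.1% in the pseudogene Gm12715, and all of its coding stretches (100%) were shared. For Tagln the share was 48.3%, mostly with Gm48529 on the opposite strand (44.5%), and 67.9% of its exonic bases overlapped genes of that strand, Pcsk7 among them. For Actb the share was 14.2%, and for Acta1 and Acta2 it was 2.22% and 0.352%. Actc1, Actg2, Cnn1, Myl9 and Srf shared 0%. Gm12715 and Gm48529 have no row of their own in the count table, whereas Pcsk7 has. How reads with several matches and the strand were handled is not given in the sources used here, so the levels of Actg1, Tagln and, to a lesser extent, Actb are uncertain.

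The CArG box was looked for in the 250 bases upstream of the annotated start (RefSeq, GRCm38.p6), where 7 of the 10 genes were matched and Actg2, Actb and Tagln were not. The search was for its consensus (CC, then 6 bases that are A or T, then GG), which covers both strands because the reverse complement has the same form. At least 1 box was present in the windows of 5 genes, Acta1, Actc1, Actg1, Myl9 and Srf, against 1.47% of 32851 such windows over all genes. Most of the 10 genes were already known as SRF targets when chosen, so this is a description and not a finding of enrichment. These 5 windows are printed to show the box, each 5′ to 3′ on the gene's own strand with the box in capitals, and without the bases at the downstream end that GENCODE M21 counts as exon (0 for Acta1, 12 for Actc1, 47 for Actg1, 44 for Myl9 and 13 for Srf). The printed parts lie at chr8:123894776-123895025 (Acta1, minus strand), chr2:114052888-114053125 (Actc1, minus), chr11:120348543-120348745 (Actg1, minus), chr2:156775214-156775419 (Myl9, plus) and chr17:46556176-46556412 (Srf, minus).
Acta1: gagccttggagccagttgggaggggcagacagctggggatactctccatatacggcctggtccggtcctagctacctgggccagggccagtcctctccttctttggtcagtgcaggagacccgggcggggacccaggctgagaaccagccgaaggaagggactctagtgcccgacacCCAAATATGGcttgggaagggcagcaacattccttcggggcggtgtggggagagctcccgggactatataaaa
Actc1: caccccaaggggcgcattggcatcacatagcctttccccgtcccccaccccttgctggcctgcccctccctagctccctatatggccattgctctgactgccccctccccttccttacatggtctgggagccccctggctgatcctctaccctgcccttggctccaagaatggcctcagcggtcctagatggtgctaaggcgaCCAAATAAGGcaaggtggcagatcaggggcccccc
Actg1: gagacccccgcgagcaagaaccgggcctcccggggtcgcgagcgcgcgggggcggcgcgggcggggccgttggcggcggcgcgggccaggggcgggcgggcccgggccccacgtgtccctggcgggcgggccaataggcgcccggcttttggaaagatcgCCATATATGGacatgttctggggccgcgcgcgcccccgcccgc
Myl9: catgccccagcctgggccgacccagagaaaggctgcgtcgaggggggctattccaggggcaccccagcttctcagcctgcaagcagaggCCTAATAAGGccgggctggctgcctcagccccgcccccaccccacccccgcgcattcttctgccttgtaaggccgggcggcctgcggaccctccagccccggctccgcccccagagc
Srf: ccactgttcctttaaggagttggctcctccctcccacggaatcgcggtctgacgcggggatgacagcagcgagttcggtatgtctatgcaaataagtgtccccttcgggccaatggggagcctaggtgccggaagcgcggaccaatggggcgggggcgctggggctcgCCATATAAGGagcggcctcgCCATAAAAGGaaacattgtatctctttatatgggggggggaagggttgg
The first base of the box lay 73 bases upstream of the start in Acta1, 47 in Actc1, 90 in Actg1 and 161 in Myl9, while Srf held 2 boxes, at 82 and 62 bases. Allowing 1 base off the consensus, a search added after the exact result was seen, the Acta2 window held 2 such stretches, 84 and 34 bases upstream, and the Cnn1 window none. Such near matches are common, since 18.6% of all windows hold a stretch at most 1 base off. Whether SRF binds any of these stretches, exact or 1 base off, was not tested, so a window without an exact box may still hold a binding site.

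These distances are from the RefSeq starts, which differ from those of GENCODE M21. The GENCODE principal transcript started upstream of the RefSeq start by 12 bases for Actc1, 217 for Acta2, 47 for Actg1, 44 for Myl9 and 13 for Srf, and downstream of it for Acta1 and Cnn1. Most of the Acta2 window therefore lies inside the GENCODE gene. The Actc1 window lies wholly inside its GENCODE gene span, which reaches 673 bases upstream of the RefSeq start through another transcript.

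The libraries held 9224038 to 10430270 counts, and the 10 genes made up 0.737% to 0.862% of them. Gaa, the targeted gene, encodes the lysosomal enzyme that degrades glycogen. Its counts were 469, 445 and 552 with the Gaa hairpin and 1033, 1158 and 1119 with the scrambled one (libraries 1 to 3 of each), a log2 fold change of -1.25 ± 0.07 (SE, edgeR adjusted p = 1.09e-09). The library shScrambled 1 stood apart from its group, with a median absolute log2 deviation of 0.116 from the mean of the others, against 0.0775 to 0.0941 for the remaining 5 libraries. The myotube label was checked against 8 markers. All had reads, but 2 were scarce over the 6 libraries, Myh8 at 0.322 to 2.26 CPM (counts scaled to the TMM-adjusted library size) and Myh7 at 0.752 to 1.83 CPM. Of the 8, 5 were called lower in shGAA, against 19.7% of all tested genes. Among them was embryonic myosin Myh3, at 31.3 to 36.6 CPM against 62.2 to 107 in shScrambled. The 8 markers summed to 328 to 365 CPM in shGAA and 457 to 632 in shScrambled, and the part of this difference in the results on striated genes was not tested. Of the myoblast regulators, Myf5 was higher (57.3 to 71.9 CPM in shGAA against 38.9 to 49.9 in shScrambled, log2 fold change 0.51 ± 0.10, adjusted p = 0.00130). Myod1 was not called (log2 fold change 0.04 ± 0.07, adjusted p = 0.684) and Pax7, with 3 to 14 counts, was not tested. The 3 regulators summed to 132 to 143 CPM in shGAA and 114 to 117 CPM in shScrambled, and their part was not tested either. In these bulk samples, fewer cells of a type and less RNA per cell cannot be told apart.

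With the Gaa hairpin the striated actin transcripts fell the most among the actins, the cytoplasmic actins fell slightly, and no change of the smooth muscle actins passed the test. Of the 10 genes, all tested, 6 were lower in shGAA, 0 were higher and 4 did not pass (edgeR quasi-likelihood test, adjusted p under 0.05). At an unadjusted p under 0.05 the counts were 7 lower and 0 higher, and DESeq2 and limma-voom also called 0 higher. Over all 11801 tested genes 38.2% were called, 19.7% lower and 18.5% higher, that is 2330 and 2182 genes (1872 and 2809 with library size as sole scaling). The groups did not overlap for 3 of the 10 genes, all lower in shGAA, against 49.6% of all tested genes in either direction. The count of 6 lower genes rested on single libraries, since it was 2 without shGAA 3, where Acta1 and Actg1 were still lower, and 4 without shGAA 2, shScrambled 2 or shScrambled 3.

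**Figure D1:**
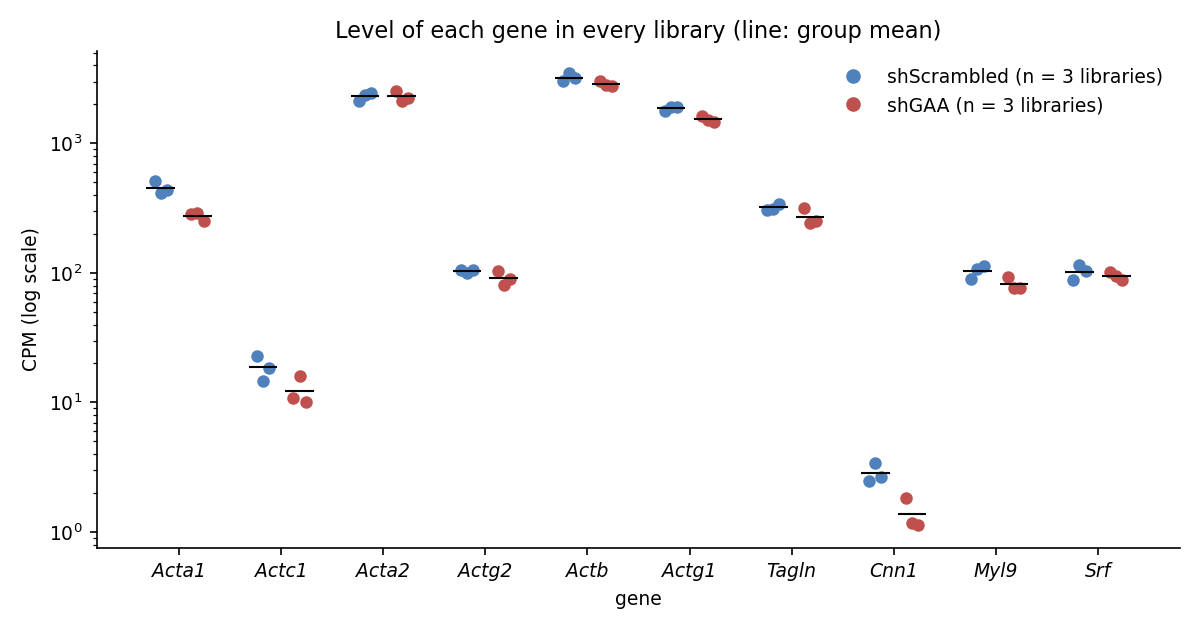
Level of the 10 genes in every library, in CPM on a logarithmic axis, with shScrambled libraries in blue, shGAA libraries in red and a black line at each group mean. The groups are fully apart for Acta1, Actg1 and Cnn1 and overlap for the other 7 genes, and the genes span from about 1 CPM (Cnn1) to 3477 CPM (Actb in shScrambled 2).

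Acta1, which encodes the actin of the adult skeletal thin filament (chromosome 8, 123891769 to 123894751 on GRCm38, minus strand), had the clearest fall. It stood at 286, 290 and 253 CPM in shGAA 1 to 3 and at 513, 412 and 433 CPM in shScrambled 1 to 3. All shGAA libraries lay below all shScrambled libraries, as they did for 24.9% of all tested genes, and shScrambled 1 was the highest. This was a 1.64-fold reduction (log2 -0.71 ± 0.08 SE, 3 libraries against 3, edgeR adjusted p = 0.000133), and only 7.59% of tested genes had a larger change in either direction. The call held in each of the 13 alternative settings, and without shScrambled 1 the change was -0.61.

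Actc1, the cardiac isoform (chromosome 2, 114047282 to 114053548), was far scarcer. Its reads numbered 106, 150 and 108 in shGAA and 221, 137 and 173 in shScrambled, or 10.8, 16.0 and 10.2 against 22.7, 14.7 and 18.5 CPM. The groups overlapped, because shGAA 2 lay above shScrambled 2. On the log2 scale the difference was -0.60 ± 0.20 (edgeR adjusted p = 0.0333). Leaving out shGAA 1, shGAA 3 or shScrambled 3 ended the call, at adjusted p of 0.116, 0.122 and 0.0752. Its share of the striated actin RNA per kilobase lay between 3.58% and 5.14% in shGAA and between 3.38% and 4.16% in shScrambled, ranges that overlapped, and the sign of the difference rested on shGAA 2.

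Acta2, whose product is the actin of vascular smooth muscle and myofibroblasts (chromosome 19, 34241090 to 34255590), was the actin with the smallest change. It stood at 2559, 2140 and 2251 CPM in shGAA and at 2110, 2357 and 2459 CPM in shScrambled, with the highest value in shGAA 1 and the lowest in shScrambled 1. Its log2 fold change was 0.01 ± 0.07 (edgeR adjusted p = 0.964), with a 95% interval of -0.16 to 0.17, and 98.4% of tested genes had a larger change. This interval did not overlap that of Acta1, -0.90 to -0.52. The sign turned without shGAA 1 (-0.07) or shScrambled 1 (-0.06).

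Actg2, the enteric smooth muscle actin (chromosome 6, 83512905 to 83536265), was at 103, 81.3 and 89.8 CPM in shGAA and 105, 99.3 and 106 CPM in shScrambled. The library shGAA 1 fell among the controls while the others lay below them. A log2 fold change of -0.18 ± 0.07 did not pass (edgeR adjusted p = 0.0611), but it passed without shGAA 1 (-0.27, adjusted p = 0.00769) and with no filter on low counts (adjusted p = 0.0145).

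Actb and Actg1, the cytoplasmic actins, were both slightly lower in shGAA. Actb (chromosome 5, 142903115 to 142906754) was at 3043, 2802 and 2786 CPM in shGAA and 3015, 3477 and 3196 CPM in shScrambled. The groups overlapped, since shGAA 1 exceeded shScrambled 1. The reduction was 1.12-fold (log2 -0.17 ± 0.05, edgeR adjusted p = 0.0193). It no longer passed when counts were scaled by library size alone (adjusted p = 0.0679), nor when shGAA 2, shGAA 3 or shScrambled 2 was left out (0.0893, 0.0925 and 0.103).

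Actg1 (chromosome 11, 120345690 to 120348542) was at 1635, 1508 and 1465 CPM in shGAA and 1767, 1911 and 1911 CPM in shScrambled, with no overlap between the groups. Its log2 fold change of -0.28 ± 0.05 (edgeR adjusted p = 0.000217) held in all 13 alternative settings, between -0.32 and -0.23. Its reads are those most exposed to pseudogene copies, as given above. Actg1 made up 34.1% to 34.6% of the cytoplasmic actin RNA per kilobase in shGAA and 35.1% to 37.0% in shScrambled.

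**Figure D2:**
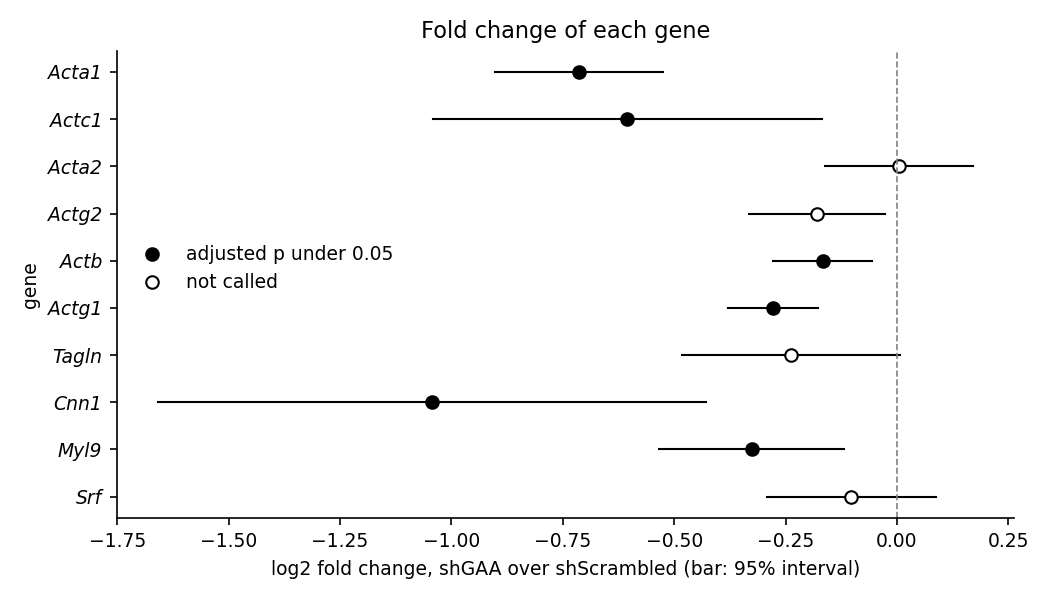
Log2 fold change of shGAA over shScrambled for the 10 genes, with 95% intervals from edgeR; filled points passed the test and open points did not. Cnn1, Acta1 and Actc1 lie farthest below 0, and Acta2 lies at 0.01.

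The balance between the actin classes was compared within each library, per kilobase of the principal transcript, since levels of different genes can be set side by side only per length. Striated actins made up 5.18%, 5.95% and 5.12% of actin RNA with the Gaa hairpin and 9.35%, 6.84% and 7.36% with the scrambled one (libraries 1 to 3). Every shGAA library was below every shScrambled library, and shScrambled 1 was the highest. Smooth muscle actins made up 33.7%, 31.3% and 33.0% in shGAA and 28.2%, 28.5% and 30.3% in shScrambled, again without overlap but in the other direction. Cytoplasmic actins held 61.1% to 62.8% in shGAA and 62.3% to 64.6% in shScrambled, and these ranges overlapped. All of these shares rest in part on the levels of Actg1 and Actb, which sequence shared with other genes makes uncertain.

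As log2 ratios, striated over cytoplasmic actin was -3.52 ± 0.10 (SD, n = 3) in shGAA and -3.02 ± 0.26 in shScrambled, a difference of -0.50. The difference was -0.36 without shScrambled 1. Smooth muscle over cytoplasmic actin was -0.92 ± 0.07 in shGAA and -1.12 ± 0.07 in shScrambled, a difference of 0.20. Striated over smooth muscle actin differed by -0.70, and by -0.54 without shScrambled 1. These ratios are given as descriptions with no test. The smooth muscle share was higher although neither Acta2 nor Actg2 was called higher, since Acta1, Actc1, Actb and Actg1 were all called lower.

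**Figure D3:**
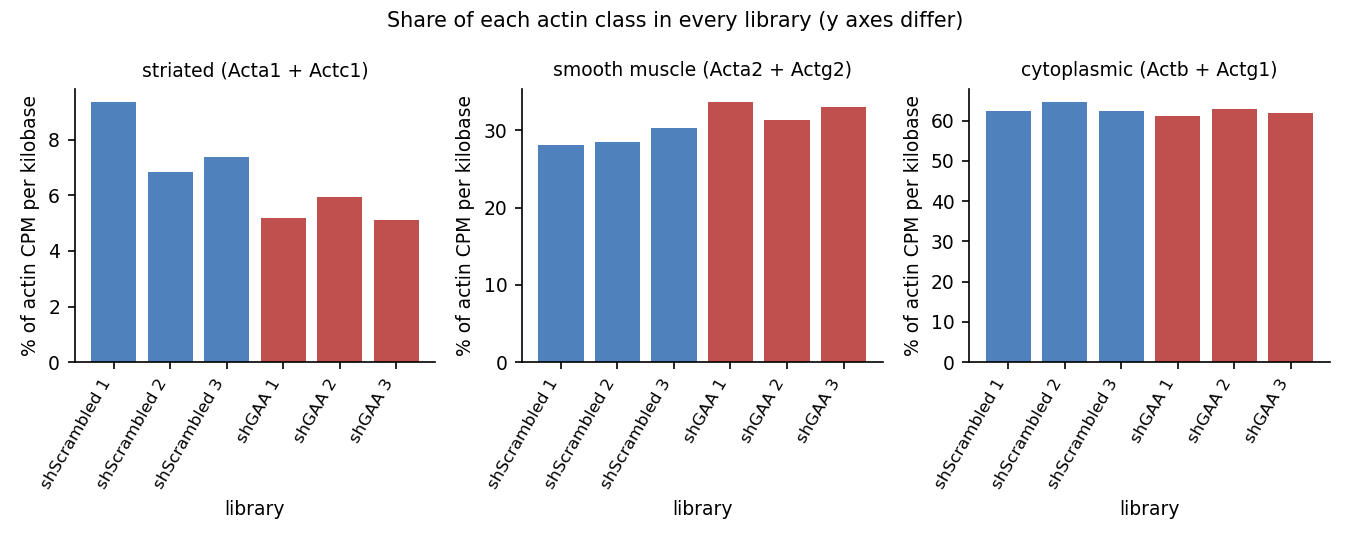
Share of striated, smooth muscle and cytoplasmic actins in the summed actin CPM per kilobase of each library, in percent, with shScrambled in blue and shGAA in red; the y axes start at 0 and differ in range. Striated shares are lower in all 3 shGAA libraries (at most 5.95%) than in any shScrambled library (at least 6.84%), and smooth muscle shares are higher.

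The order of the levels was led by non-striated actins in both groups. In shScrambled it ran Actb (1682 ± 121 CPM per kilobase, SD, n = 3), Acta2 (1134 ± 88.3), Actg1 (954 ± 42.6), Acta1 (313 ± 36.8), Tagln (201 ± 11.6), Myl9 (91.6 ± 10.3), Actg2 (77.5 ± 2.61), Srf (39.1 ± 5.11), Actc1 (12.6 ± 2.71) and Cnn1 (1.20 ± 0.215). No neighbours in that order overlapped, although Actg2 (74.5 to 79.3) came close to Myl9 (80.2 to 100.1). The places of Actg1 and Tagln are uncertain, since 56.7% and 48.3% of their 50-base stretches recur in other genes. How reads from such stretches were counted is not known, and the levels were corrected for length only. In shGAA the order was the same, but Acta1 (175 to 201) now overlapped Tagln (153 to 200.1), and Myl9 (68.3 to 82.5) overlapped Actg2 (61.0 to 77.0).

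Of the smooth muscle actin-binding and motor genes, Cnn1 and Myl9 fell and Tagln did not pass. Tagln encodes transgelin (SM22), an actin-bundling protein used as an early smooth muscle marker. It lies on chromosome 9 (45929619 to 45936058) and was at 319, 244 and 254 CPM in shGAA and 307, 314 and 342 CPM in shScrambled, where shGAA 1 lay inside the control range and the others below it. Its log2 fold change was -0.24 ± 0.10 (edgeR adjusted p = 0.114). It passed without shGAA 1 (-0.37, adjusted p = 0.000355), in limma-voom (adjusted p = 0.0303), in the non-robust fit (0.0384) and with no filter on low counts (0.000129).

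Myl9 encodes the regulatory light chain of smooth and non-muscle myosin II. It lies on chromosome 2 (156775420 to 156781658) and was at 93.1, 77.0 and 77.1 CPM in shGAA and 90.4, 107 and 113 CPM in shScrambled, with shGAA 1 above shScrambled 1. It was lower by a log2 fold change of -0.33 ± 0.09 (edgeR adjusted p = 0.0190). Without shGAA 2, shGAA 3, shScrambled 2 or shScrambled 3 it did not pass, at adjusted p of 0.0756, 0.0894, 0.0686 and 0.0566.

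Cnn1 encodes basic calponin, an actin-binding inhibitor of myosin ATPase in differentiated smooth muscle, and was the scarcest of the 10 genes (chromosome 9, 22099216 to 22109630). Only 18, 11 and 12 reads were counted in shGAA and 24, 32 and 25 in shScrambled. In CPM (1.84, 1.17 and 1.13 against 2.47, 3.44 and 2.67) the groups did not overlap. Its log2 fold change was -1.04 ± 0.29 (edgeR adjusted p = 0.00931), with a 95% interval of -1.66 to -0.43, and the adjusted p was 0.0508 without shGAA 3.

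Srf, the shared regulator (chromosome 17, 46548329 to 46556175), was at 101, 95.4 and 88.9 CPM in shGAA and 88.3, 115 and 104 CPM in shScrambled. The lowest and the highest value were both in shScrambled. With a log2 fold change of -0.10 ± 0.09 (95% interval -0.29 to 0.09, edgeR adjusted p = 0.384) it did not pass. Without shScrambled 1 it was -0.20 with an adjusted p of 0.00730.

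**Figure D4:**
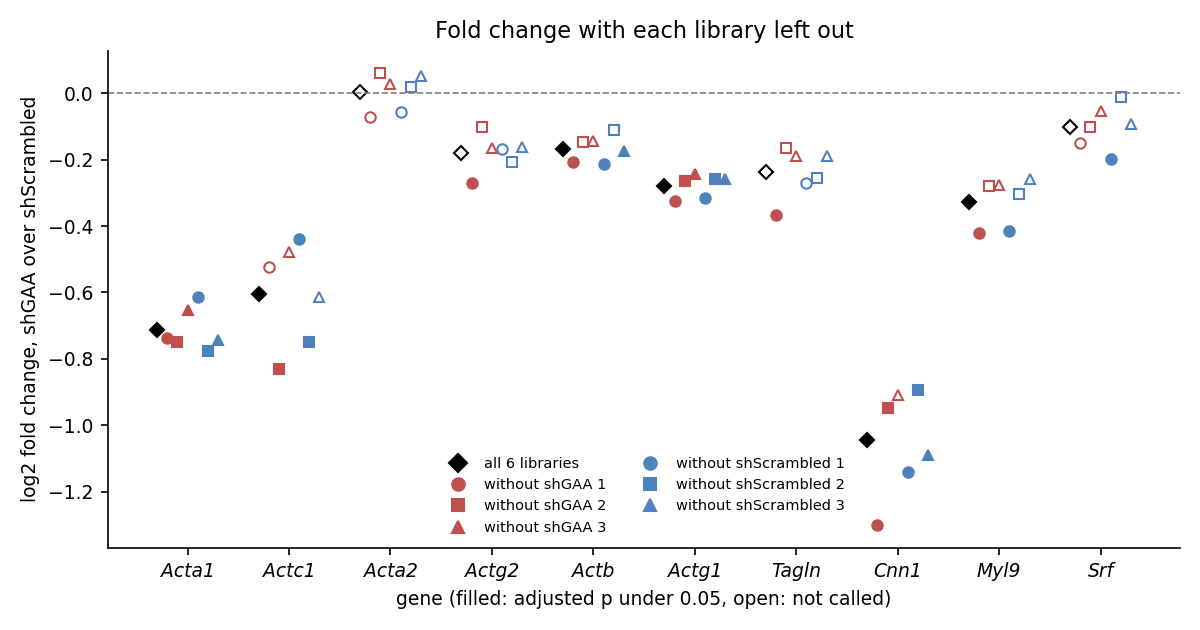
Log2 fold change of the 10 genes in the fit of all 6 libraries (black) and with each shGAA (red) or shScrambled (blue) library left out; filled symbols passed the test and open symbols did not. Acta1 and Actg1 are filled throughout, Acta2 is open throughout and crosses 0, and the other genes change between filled and open.

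At immediate early genes SRF acts together with the ternary complex factors of the ETS family (here and in the lists that follow, sizes are log2 fold changes ± SE). In that branch 13 genes were tested, of which 1 was higher, 2 were lower and 10 were not called, with a median of -0.12 against 0.01 over all tested genes. The shares called over all tested genes were 18.5% higher and 19.7% lower. The list pools the 3 ternary complex factor genes with immediate early targets, and Fosl1 was the only target called. Fosl1, encoding the AP-1 subunit FRA1, was at 81.9, 78.4 and 82.1 CPM in shGAA and 155, 151 and 134 CPM in shScrambled, a fall of 0.86 ± 0.06 (edgeR adjusted p = 1.87e-08). It overlaps Ccdc85b on the opposite strand over 57.2% of its exonic bases. The 3 ternary complex factor genes differed, with the most abundant, Elk3, not called (127 ± 4.47 against 132 ± 2.66 CPM, SD, log2 fold change -0.06 ± 0.05, adjusted p = 0.369), Elk4 at -0.53 ± 0.10 (adjusted p = 0.000494) and Elk1 at 0.28 ± 0.07 (adjusted p = 0.00501). With no filter on low counts 4 genes of the branch fell.

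Cytoskeletal and adhesion genes known as SRF and MRTF targets moved in both directions. Among 21 tested genes 9 were called higher, 5 lower and 7 neither, with a median of 0.13. Over all tested genes 18.5% were called higher and 19.7% lower. Cyr61, a secreted matricellular protein gene, was at 520, 514 and 508 CPM in shGAA and 332, 391 and 353 CPM in shScrambled, a rise of 0.52 ± 0.05 (edgeR adjusted p = 1.16e-06). Thbs1 (thrombospondin 1) rose by 0.57 ± 0.07 (adjusted p = 0.000159) and Myh9 (the non-muscle myosin heavy chain IIA) by 0.23 ± 0.04 (adjusted p = 0.000405). Pdlim7, an actin-associated LIM protein gene, fell by 0.39 ± 0.06 (adjusted p = 0.000125).

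Other smooth muscle markers were mostly absent. Of 11 genes listed as markers, 6 were too low to be tested, among them the smooth muscle myosin Myh11 and the coactivator gene Myocd, with at most 2 and 1 counts in any library. Acta2, Tagln, Myl9 and Actg2 were thus measured in cultures with almost no reads of the defining smooth muscle myosin. Of the 5 tested, 3 fell and 1 rose, against 19.7% and 18.5% of all tested genes. Smtn, encoding smoothelin, fell by 0.58 ± 0.06 (edgeR adjusted p = 6.71e-07). The other 2 that fell were scarce. Mylk, the myosin light chain kinase gene, was at 0.640 to 1.33 CPM in shGAA and 2.36 to 5.12 CPM in shScrambled (-1.98 ± 0.35, adjusted p = 0.000287). Kcnmb1, a potassium channel subunit gene, was at 0.640 to 1.33 CPM in shGAA and 2.13 to 2.77 CPM in shScrambled (-1.10 ± 0.32, adjusted p = 0.0119). Synpo2, an actin-bundling protein gene, rose by 0.42 ± 0.09 (adjusted p = 0.00166). The call of Kcnmb1 was lost in DESeq2 (adjusted p = 0.0514) and without shGAA 2 (0.0671).

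The non-muscle relatives of these proteins were also measured, and 3 of 5 were called higher, 1 lower and 1 neither. The shares over all tested genes were 18.5% higher and 19.7% lower. Myl12b, encoding a non-muscle regulatory light chain like Myl9, rose by 0.54 ± 0.05 (edgeR adjusted p = 9.74e-07) and Myl12a by 0.17 ± 0.04 (adjusted p = 0.00600). However, 91.1% of the coding stretches of Myl12a and 47.4% of those of Myl12b recur in other genes, chiefly in each other. Cnn3, acidic calponin, rose by 0.23 ± 0.04 (adjusted p = 0.000364), and shares 30.3% of its stretches with other transcripts. Tagln2 fell by 0.24 ± 0.05 (adjusted p = 0.00152).

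**Figure D5:**
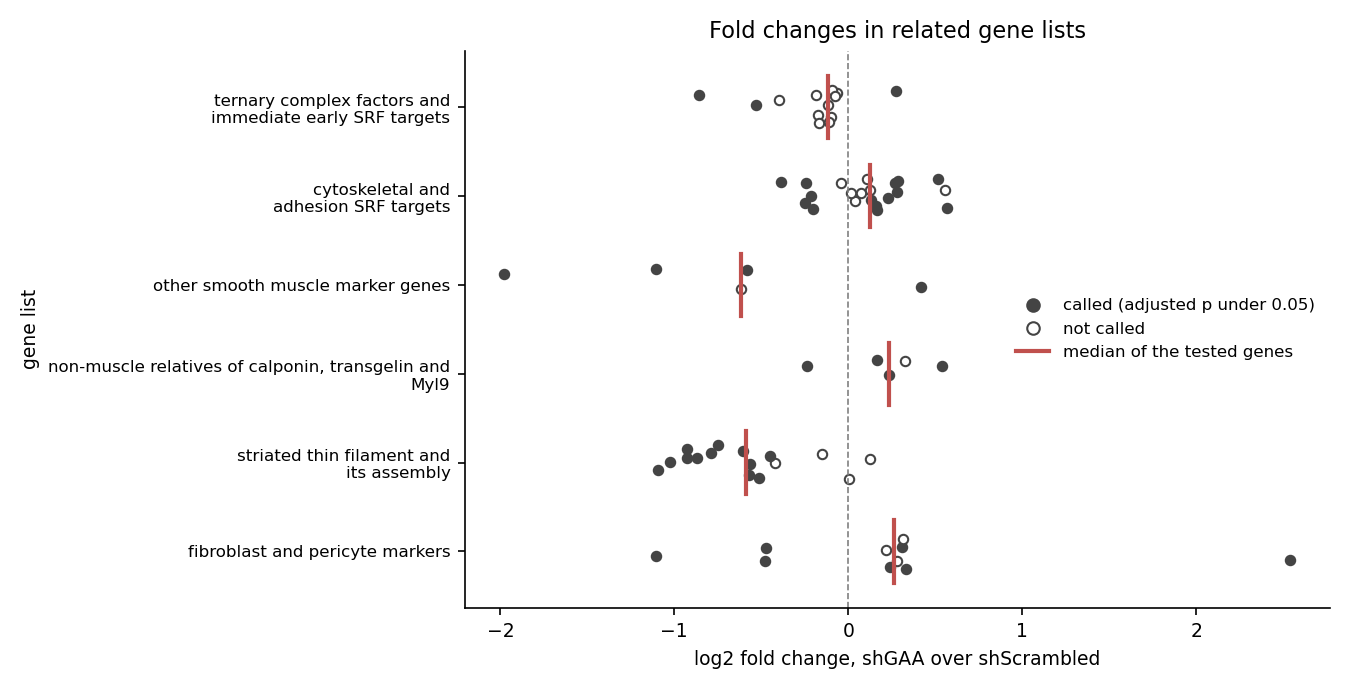
Log2 fold change of shGAA over shScrambled for each tested gene of 6 related lists (filled: called, open: not called), with the list median as a red bar. The striated thin filament list lies mostly below 0 (median -0.59), the cytoskeletal SRF targets lie on both sides (median 0.13), and Postn is the point farthest to the right.

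Most partners of striated actin in the thin filament were lower in shGAA, as Acta1 was. Among 16 tested thin filament and assembly genes 12 were lower, 0 higher and 4 uncalled (0 also rose at an unadjusted p under 0.05, in DESeq2 and in limma-voom), with a median of -0.59. Over all tested genes 19.7% were called lower and 18.5% higher. With a library left out, the count of lower genes ranged from 8 (without shGAA 1 or shGAA 3) to 13 (without shScrambled 1 or shScrambled 2). Tnnc1 (slow and cardiac troponin C) was at 55.8, 55.9 and 56.0 CPM in shGAA and 128, 93.8 and 97.9 CPM in shScrambled, a fall of 0.93 ± 0.11 (edgeR adjusted p = 0.000136). Tmod1 (tropomodulin, which caps the pointed end of the actin filament) fell by 1.03 ± 0.13 (adjusted p = 7.50e-06), Klhl41 (a stabiliser of thin filament proteins) by 0.79 ± 0.13 (adjusted p = 0.000116) and Tnni2 (fast troponin I) by 0.57 ± 0.11 (adjusted p = 0.000441). Tmod1 shares 39.8% of its stretches with Tstd2, which lies opposite to it.

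Markers of fibroblasts and pericytes, cells that can also make Acta2, were measured beside these results. The 12 markers summed to 5434 to 5601 CPM in shGAA and 4786 to 4906 CPM in shScrambled. Without Col3a1, the other 11 summed to 2059 to 2130 CPM in shGAA and 2061 to 2112 CPM in shScrambled, ranges that overlapped. Thy1 was at 0 in all libraries and Rgs5 had at most 1 count in any. Among the 10 tested, 4 were called higher and 3 lower, against 18.5% and 19.7% of all tested genes. Postn, a matricellular protein gene, rose by 2.54 ± 0.11 (edgeR adjusted p = 4.67e-08) and the collagen gene Col3a1 by 0.31 ± 0.04 (adjusted p = 7.46e-06, from 2759 to 3413 CPM), while Col1a1 fell by 1.10 ± 0.10 (adjusted p = 1.96e-07) and Col1a2 by 0.47 ± 0.05 (adjusted p = 2.29e-06). Their part in the actin results was not tested.

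The genes whose CPM followed an actin most closely over the 6 libraries were listed as a description, since the libraries share the group difference. For Acta1 these were Iffo2 (Pearson r = 0.999 on the log2 scale), Pcdh1 (0.999) and Glrx (0.997), all lower in shGAA, and 1181 of 10326 genes compared had r over 0.9. For Acta2 they were Zdhhc12 (0.982), Keap1 (0.977) and Dnajb5 (0.972), none of them called, and 32 genes had r over 0.9. Among the 10 genes themselves, Acta1 was closest to Actc1 (r = 0.871) and Acta2 to Tagln (r = 0.637), the closest pair was Actg1 and Cnn1 (r = 0.976), and Acta1 and Acta2 were at -0.15.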

How the data were processed

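RNA sequencing of 6 C2C12 libraries was analysed from the raw count table that the authors deposited, with genes given by symbol. The submitters' processing notes name mm10, HISAT2 2.1.0, Subread, FastQC and edgeR; which annotation, strand setting and multi-mapping rule were used is not given in the sources used here.

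Genes passing filterByExpr (11801 of 24421) were scaled by TMM and tested with edgeR 4.0.16 (R 4.3.3, robust quasi-likelihood F-test, no covariate); p-values were adjusted over all 11801 by Benjamini-Hochberg and called under 0.05. The SE is the log2 fold change divided by the square root of F. Alternatives used limma 3.58.1, DESeq2 1.42.0, other scalings, no filter, a replicate block and each library left out. The code was tested on simulated data.

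Gene positions, lengths and shared 50-base stretches (either strand) came from GENCODE M21 on GRCm38 and promoter windows from RefSeq. Coding sequences were aligned with MAFFT 7.526. The members and lists were chosen with earlier results of these data known. Named were the 10 genes, Gaa, up to 4 called genes per list with the smallest adjusted p, and the 3 genes of at least 5 CPM most correlated with Acta1 and with Acta2 (log2 of CPM plus 0.5). Elk3, Myh3, Myf5, Myod1 and Pax7 were named after their values were seen. One list of regulators is not reported here.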

Additional observations from a re-analysis of the deposited data

How the results depend on the processing

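Across 13 alternative settings the fold changes of Acta1 and Actg1 kept their direction and their call, and the differences in the 3 actin class shares and their 3 ratios, and in the Actg2 and Actg1 shares within their classes, kept their direction with each library left out and in raw counts. The Actc1 share of striated actin did not, as its difference of 0.316 percentage points ranged from -0.169 (without shGAA 2) to 0.608. The lower calls among the 10 genes ranged from 2 to 7 with a library left out (6 with all) and from 5 to 8 in the other settings. No gene of the 10 was called higher in any setting. The fold change of Acta2, never called, was 0.005 and ranged from -0.072 (without shGAA 1) to 0.060 with a library left out, and was -0.056 without shScrambled 1. Of the genes likened to it, also never called, Zdhhc12 ranged from -0.044 to 0.064 and Keap1 from -0.038 to 0.035, and both were below 0 without shGAA 1 (-0.044 and -0.038) or shScrambled 1 (-0.026 and -0.038). Dnajb5 ranged from -0.12 to 0.069, was above 0 without shGAA 2 (0.069) or shScrambled 3 (0.068), and was at 0.028 when counts were scaled by library size alone. The falls in the list of ternary complex factor and immediate early genes were 4 with no filter on low counts, in place of 2. Scaling by library size alone gave 2809 higher and 1872 lower calls over all genes, against 2182 and 2330. The cause was not tested in any of these cases.

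No pairing of the libraries by replicate number was seen. The correlations of deviations were -0.04, 0.06 and -0.02 for numbers 1 to 3, and only number 2 matched its own best. With 3 libraries in a group, this check cannot exclude a culture or batch shared by number. With the number as a replicate block 6 of the 10 genes were lower, as without it. Actc1 lost its call under the block (-0.60, adjusted p = 0.0643) and Actg2 gained one (-0.18, adjusted p = 0.0428). Depth limits the precision for Cnn1, with 11 to 32 counts per library.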
